A study of Mus musculus with 8 samples.

Results

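The genes described here are the isoform genes of cytochrome c oxidase that have a heart and skeletal muscle form and a ubiquitous form, together with their close relatives. The list held 9 genes: Cox4i1, Cox4i2, Cox6a1, Cox6a2, Cox7a1, Cox7a2, Cox7a2l, Cox8a and Cox8b. They were picked by symbol alone among the 80155 loci of the deposited expression tables, 39614 of which carried a gene symbol. Each of 8 genes matched 1 locus of its own. No locus carried the symbol Cox4i1, so this gene and its ratio to Cox4i2 were not analysed here. The RNA came from whole hearts, without the atrial appendages, of male Hsd:ICR(CD-1) mice, an outbred stock. Hearts of 4 mice were taken on postnatal day 1 (P1) and of 4 other mice on postnatal day 7 (P7), and each heart was sequenced as 1 library of ribodepleted total RNA. The comparison of P7 with P1 spans the first week of life, in which the mouse heart loses its capacity to regenerate.

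Cytochrome c oxidase, or complex IV, is the last enzyme of the mitochondrial respiratory chain. It takes electrons from cytochrome c, reduces oxygen to water and pumps protons across the inner membrane. Its catalytic core is encoded by mitochondrial DNA and is surrounded by small subunits encoded in the nucleus, several of which exist as alternative products of paired genes. Cox6a2, Cox7a1 and Cox8b encode the forms typical of heart and skeletal muscle, while Cox6a1, Cox7a2 and Cox8a encode the forms found in most tissues. Cox4i1 and Cox4i2 encode the usual and the hypoxia-linked form of subunit 4, which takes part in regulation by ATP. Cox7a2l encodes a relative of Cox7a2 that joins complex IV to complex III in supercomplexes.

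In the GRCm38 annotation (GENCODE), all 9 are protein-coding genes, and the 3 muscle forms lie on chromosome 7. Cox7a1 spans chr7:30184144-30186078 on the plus strand. Cox6a2 spans chr7:128205435-128206387 and Cox8b spans chr7:140898945-140900446, both on the minus strand. Of the ubiquitous forms, Cox6a1 lies at chr5:115345642-115348981, Cox7a2 at chr9:79755361-79759878 and Cox8a at chr19:7215153-7217616, all on the minus strand. Cox7a2l lies at chr17:83501918-83517330 on the minus strand and Cox4i2 at chr2:152754173-152765037 on the plus strand. The unmatched Cox4i1 is annotated at chr8:120668222-120674207 on the plus strand.

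The isoforms of a pair shared no long exact stretch of coding sequence. Aligned coding sequences were 66.6% identical between Cox6a2 and Cox6a1, 64.3% between Cox7a1 and Cox7a2, and 58.2% between Cox8b and Cox8a. The longest exact run that the coding sequences of a pair shared was 12, 12 and 10 bases in that order. The coding sequences of the Cox8 pair, the most divergent pair, are shown to make this visible, with the shared run of 10 bases in capitals (GENCODE transcripts, 213 bases for Cox8b and 210 for Cox8a).
Cox8b: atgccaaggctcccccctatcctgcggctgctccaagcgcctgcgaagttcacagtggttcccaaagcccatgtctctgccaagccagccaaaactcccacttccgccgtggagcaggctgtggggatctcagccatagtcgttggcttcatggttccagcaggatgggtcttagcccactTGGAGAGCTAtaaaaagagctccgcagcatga
Cox8a: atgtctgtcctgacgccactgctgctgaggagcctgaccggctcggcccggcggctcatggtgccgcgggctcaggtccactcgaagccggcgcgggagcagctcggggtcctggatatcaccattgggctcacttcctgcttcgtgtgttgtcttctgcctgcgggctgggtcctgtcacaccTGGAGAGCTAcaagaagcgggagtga

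Stretches of 50 bases shared exactly with transcripts of other genes were rare. None was found for Cox4i2, Cox6a2, Cox7a1, Cox7a2, Cox8a or Cox8b. Cox6a1 shared 12.3% of its 522 stretches with an annotated pseudogene that matched no locus, and Cox7a2l shared 17.8% of its 1142 stretches with the pseudogene Gm6969. The locus of Gm6969 was listed at 41.8 to 76.9 FPKM (fragments scaled for transcript length and for the mapped fragments of the library), so the level of Cox7a2l is uncertain to that extent.

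The 250 bases before the RefSeq start of transcription were available for 6 of the 9 genes, in the build GRCm38.p6. They are shown for both genes of the Cox8 and Cox7a pairs and for Cox6a1, the pairs whose ratios are compared further on. Capitals mark matches, on either strand, to any of 8 motifs: the ERR site AAGGTCA, the NRF1 site, the ETS site CCGGAAG, the MEF2 site, the TATA box TATAAA, the E-box CAGCTG, the Sp1 site GGGCGG and the CCAAT box.
Cox8b (chr7:140900447-140900696, minus strand): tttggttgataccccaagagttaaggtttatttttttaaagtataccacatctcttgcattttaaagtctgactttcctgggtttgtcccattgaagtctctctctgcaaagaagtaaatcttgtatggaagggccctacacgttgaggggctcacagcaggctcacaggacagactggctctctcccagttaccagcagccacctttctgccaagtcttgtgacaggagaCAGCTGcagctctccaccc
Cox8a (chr19:7217617-7217866, minus strand): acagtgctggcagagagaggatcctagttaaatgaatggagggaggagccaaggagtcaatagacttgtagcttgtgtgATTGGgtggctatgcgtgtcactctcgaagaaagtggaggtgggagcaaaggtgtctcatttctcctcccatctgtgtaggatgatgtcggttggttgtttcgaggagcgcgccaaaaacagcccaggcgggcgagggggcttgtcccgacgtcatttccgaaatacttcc
Cox7a1 (chr7:30183921-30184170, plus strand): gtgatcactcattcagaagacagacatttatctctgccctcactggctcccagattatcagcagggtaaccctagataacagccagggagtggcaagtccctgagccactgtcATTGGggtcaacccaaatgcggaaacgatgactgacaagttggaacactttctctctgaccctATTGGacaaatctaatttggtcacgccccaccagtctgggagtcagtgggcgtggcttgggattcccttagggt
Cox7a2 (chr9:79759854-79760103, minus strand): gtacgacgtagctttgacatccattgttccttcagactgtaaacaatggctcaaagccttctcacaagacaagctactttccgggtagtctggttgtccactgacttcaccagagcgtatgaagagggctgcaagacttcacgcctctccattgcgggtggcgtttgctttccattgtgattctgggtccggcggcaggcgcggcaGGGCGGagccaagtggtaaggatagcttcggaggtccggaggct
Cox6a1 (chr5:115348959-115349208, minus strand): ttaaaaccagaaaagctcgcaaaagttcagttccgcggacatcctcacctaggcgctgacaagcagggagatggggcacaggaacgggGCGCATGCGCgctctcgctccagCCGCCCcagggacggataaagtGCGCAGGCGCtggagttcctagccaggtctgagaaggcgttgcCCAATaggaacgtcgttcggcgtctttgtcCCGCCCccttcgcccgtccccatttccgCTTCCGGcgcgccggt

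Of the muscle forms, Cox8b had 1 CpG dinucleotide in this window and Cox7a1 had 4, while no window was available for Cox6a2. The ubiquitous forms had 11 in Cox8a, 14 in Cox7a2 and 26 in Cox6a1, against a median of 6 over 32851 promoters. Cox6a1 held 2 matches to the NRF1 site, which 3.74% of all promoters hold, and 1 to the ETS site, held by 6.91%. Cox8b held 1 match to the E-box, held by 13%, with its first base 19 bases before the start. The CCAAT box was found in Cox7a1, Cox8a and Cox6a1 and in 33.8% of all promoters, and the Sp1 site in Cox7a2, Cox7a2l and Cox6a1 and in 32.7%. The ERR site, the MEF2 site and the TATA box, held by 4.08%, 2.92% and 12.4% of promoters, had no match in the windows of these 6 genes. No motif match overlapped another. A match is only a description of the letters in the window.

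The members spanned a wide range of levels, in FPKM, which is scaled for transcript length. At P1 the order of mean levels was Cox8a, Cox6a2, Cox8b, Cox7a1, Cox7a2, Cox6a1, Cox7a2l and Cox4i2. At P7 it was Cox6a2, Cox8b, Cox8a, Cox7a1, Cox7a2, Cox7a2l, Cox6a1 and Cox4i2. Among neighbours in the P1 order, the ranges over hearts were apart for Cox7a2 and Cox6a1 and for Cox7a2l and Cox4i2, and overlapped for all others. In the P7 order they were apart for Cox6a2 and Cox8b, Cox7a1 and Cox7a2, Cox7a2 and Cox7a2l, and Cox6a1 and Cox4i2, and overlapped for Cox8b and Cox8a, Cox8a and Cox7a1, and Cox7a2l and Cox6a1. Cox6a2, below Cox8a in 3 of 4 hearts at P1, stood above every other member in all 4 hearts at P7.

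**Figure D1:**
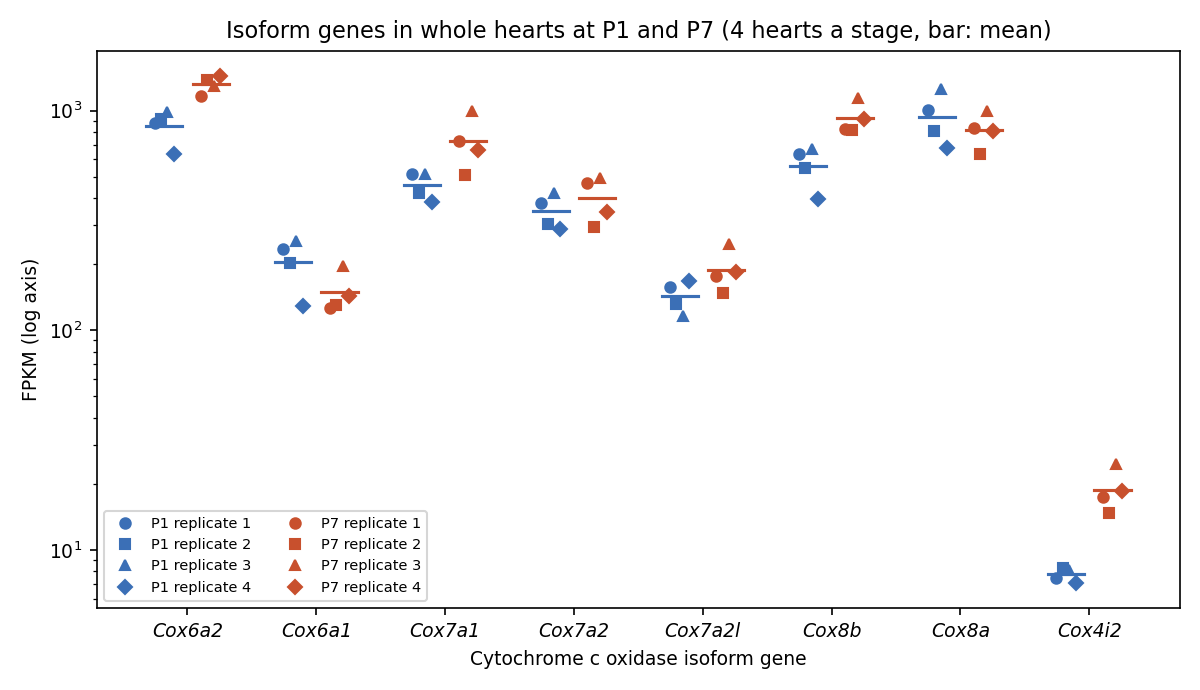
FPKM (log axis) of the 8 isoform genes with a locus, 1 point per heart, blue for P1 and orange for P7, marker shape for the replicate and a bar for the mean of 4 hearts. Cox6a2, Cox8b and Cox4i2 have all their P7 points above their P1 points, while the stages overlap for the other 5 genes.

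Each gene was tested with limma on log2(FPKM + 1), and the Benjamini-Hochberg adjustment ran over the 43172 loci tested. Calling a gene required an adjusted p below 0.05 together with stage means that differed by a factor of 1.5 or more. Of the 8 members, 1 was called, Cox4i2, against 8.14% of the 17960 tested loci with a symbol (7.74% higher and 0.401% lower in P7). Every P7 heart lay above every P1 heart for 3 members, against 17.3% of these loci, and none lay wholly below, against 2.69%. The median log2 fold change of the 8 members was 0.50, against 0.19 over all these loci, and 6 of the 8 were positive. Under median-ratio scaling of the hearts, both medians moved down, to 0.23 and −0.02. All the hearts carried the labelled tissue: the summed FPKM of 10 cardiomyocyte markers, led by contractile genes, ran from 18246 to 32800 at P1 and from 27597 to 40414 at P7, and 0 of the 10 were called by limma, with 4 at an unadjusted p under 0.05 and 2 lying higher in every P7 heart. Here and below, counts at an unadjusted p have no background beside them, since the share of all tested loci at that threshold was not computed. In RNA of whole hearts, fewer cells of a type and less RNA per cell cannot be told apart.

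Hearts also differed in a property of the libraries. Over 8322 loci, the deviation of a heart from the mean correlated with the GC content of the transcripts, with Spearman coefficients between −0.55 and −0.31 for the hearts taken at P1 and between 0.31 and 0.59 for those taken at P7. These coefficients are a description across loci, which are not independent replicates. The trend separated the stages completely, so this property of the libraries and the age of the hearts cannot be told apart. Values after a correction of every heart for this trend are therefore also given for the members, the 3 isoform ratios and the calls named below.

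The Cox6a pair supplies subunit 6A, which sits at the contact between the monomers of the enzyme. Cox6a2, the muscle form, was at 875, 910.2, 987 and 634 FPKM in P1 replicates 1 to 4 and at 1168, 1383, 1290.1 and 1435 FPKM in P7 replicates 1 to 4. Cox6a1, the ubiquitous form, was at 235, 202, 253 and 128 FPKM at P1 and at 126, 129.7, 196 and 143 FPKM at P7. The stages did not overlap for Cox6a2 and did for Cox6a1, in which P1 replicate 4 lay as low as the P7 hearts. The log2 fold change was 0.65 ± 0.22 (SE, n = 4 per stage; limma, adjusted p = 0.142) for Cox6a2. For Cox6a1 it was −0.44 ± 0.25 (adjusted p = 0.364, limma), so neither gene passed the test by itself. After correction for GC content the log2 fold changes were 0.47 and −1.01, and neither was called (limma, adjusted p = 0.0609 for Cox6a1).

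The ratio of the isoforms within a heart, which does not depend on how that heart was scaled, separated the stages clearly. Cox6a2/Cox6a1 was 3.73, 4.51, 3.89 and 4.94 in the P1 hearts and 9.29, 10.7, 6.58 and 10.03 in the P7 hearts. The geometric mean rose from 4.24 to 8.99, a log2 shift of 1.08 ± 0.18 (SE, n = 4 per stage). The exact two-sided permutation test gave p = 0.0286, the smallest that 4 against 4 hearts allow. Without P1 replicate 1 or P1 replicate 3 the shift was 1.02 and 1.04, with an exact permutation p of 0.0571 for each. The stages stayed apart without either heart. The smallest p of 3 against 4 hearts is 0.0286, and a complete separation can also give 0.0571. All P7 hearts lay above all P1 hearts, and the muscle form held 80.9% ± 2.00 (SD, n = 4) of the pair at P1 and 89.9% ± 2.09 at P7. After correction for GC content the P1 ratios were 3.51 to 3.98 and the P7 ratios 7.17 to 13.4, a shift of 1.48.

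The Cox8 pair supplies subunit 8, a short subunit of the membrane arm. Cox8b, the muscle form, was at 631, 549, 665 and 395 FPKM at P1 and at 827, 811, 1136 and 914 FPKM at P7. Cox8a, the ubiquitous form, was at 1001, 807, 1249 and 676 FPKM at P1 and at 832, 632, 994 and 806 FPKM at P7. All 4 P7 hearts exceeded all 4 P1 hearts in Cox8b, while the stages overlapped widely for Cox8a. The log2 fold change was 0.73 ± 0.23 (SE, n = 4 per stage) for Cox8b, with an adjusted p of 0.113 in limma. For Cox8a it was −0.17 ± 0.25, with an adjusted p of 0.682 in limma. The GC correction gave 0.35 for Cox8b and −0.68 for Cox8a, and neither was called.

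In FPKM, the balance of the Cox8 pair moved toward the muscle form between the stages. Cox8b/Cox8a was 0.630, 0.680, 0.532 and 0.584 in the P1 hearts and 0.994, 1.28, 1.14 and 1.13 in the P7 hearts. The ubiquitous form thus prevailed in FPKM in all 4 P1 hearts, and the muscle form in 3 of 4 P7 hearts, with P7 replicate 1 close to parity. Which form prevails depends on the scaling for transcript length (360 bases for Cox8b, 550 for Cox8a), which was not tested. The log2 shift was 0.91 ± 0.11 (SE, n = 4 per stage; exact permutation test, p = 0.0286, the smallest possible). The share of Cox8b in the pair rose from 37.7% ± 2.45 (SD, n = 4) to 53.1% ± 2.61. With the correction for GC content the ratios were 0.514 to 0.653 at P1 and 1.04 to 1.38 at P7.

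Since Cox8b and Cox7a1 are also used by skeletal muscle and brown fat, markers of both tissues were read beside them. Of 12 skeletal muscle markers 5 were tested, 0 were called higher and 1 lower by limma, against 7.74% and 0.401% of the loci with a symbol. The gene called lower was Pvalb, a calcium buffer of fast muscle fibres, with means of 3.66 FPKM at P1 and 0.454 FPKM at P7 (log2 fold change −1.68; limma, adjusted p = 0.00553). The summed FPKM of the 12 ran from 277 to 1009 at P1 and from 550 to 1361 at P7, nearly all of it from Ckm, the muscle creatine kinase that the heart also uses. The fast troponin Tnni2 was at 2.39 to 5.96 FPKM over all hearts, the fast myosin light chain Mylpf at 0.375 to 3.73 FPKM and the fast troponin Tnnt3 at 0.482 to 1.44 FPKM. The skeletal myosins Myh1, Myh2 and Myh4 and the factor Myod1 were at most 0.294 FPKM in any heart. The brown fat uncoupler Ucp1 was at 3.08 FPKM in P7 replicate 2 and 10.3 FPKM in P7 replicate 4, and at most 0.147 FPKM in the other 6 hearts. The adipocyte genes Adipoq and Plin1 were also highest in these 2 hearts, at 1.20 and 2.75 FPKM and at 0.769 and 1.41 FPKM. In the other 6 hearts they were at most 0.575 and 0.0776 FPKM. Summed FPKM of 9 brown fat and adipocyte markers ran from 9.69 to 18.7 at P1 and from 22.1 to 41.1 at P7, without overlap, most of it from Cidea. Of 5 tested, 1 was called higher by limma, Cidea (log2 fold change 0.88, adjusted p = 0.0348), and 0 with the GC correction. The part of brown fat and skeletal muscle in the values of Cox8b and Cox7a1 was not tested.

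The Cox7a pair supplies subunit 7A, which lies at the face of complex IV that meets complex III in supercomplexes. Cox7a1, the muscle form, was at 514, 423, 513 and 382 FPKM at P1 and at 727, 509.6, 996 and 660.1 FPKM at P7. Cox7a2, the ubiquitous form, was at 378, 305, 419 and 287 FPKM at P1 and at 469.8, 294, 491 and 346 FPKM at P7. The stages overlapped for both genes, for Cox7a1 through P7 replicate 2 alone. The log2 fold change was 0.63 ± 0.24 (SE, n = 4 per stage; limma, adjusted p = 0.191) for Cox7a1. For Cox7a2 it was 0.19 ± 0.23 (adjusted p = 0.634, limma), and −0.086 under median-ratio scaling. The GC correction gave 0.28 for Cox7a1 and 0.07 for Cox7a2, and neither was called.

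Cox7a1/Cox7a2 was 1.36, 1.39, 1.22 and 1.33 in the P1 hearts and 1.55, 1.73, 2.03 and 1.91 in the P7 hearts. In FPKM, the muscle form was already the major one in every P1 heart, and its share rose from 57.0% ± 1.37 (SD, n = 4) to 64.2% ± 2.73. The log2 shift was 0.44 ± 0.09 (SE, n = 4 per stage; exact permutation test, p = 0.0286, the smallest possible), with no overlap of the stages. Without any 1 of the P1 hearts the shift was 0.40 to 0.46, with an exact permutation p of 0.0571 in each case. The stages stayed apart in each of these, and a complete separation of 3 against 4 hearts can give this p. Of the 3 pairs, only this one lost its separation of the stages with the GC correction. After it the shift was 0.20 ± 0.09, the stages overlapped (1.37 to 1.51 at P1, 1.45 to 1.88 at P7) and the exact permutation p was 0.0857. The Cox7a1 and Cox7a2 transcripts have a GC content of 55.3% and 51.9%, whereas in the other pairs the muscle form is the poorer in GC (52.8% in Cox6a2 against 62.7% in Cox6a1, and 55.8% in Cox8b against 58.5% in Cox8a).

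**Figure D2:**
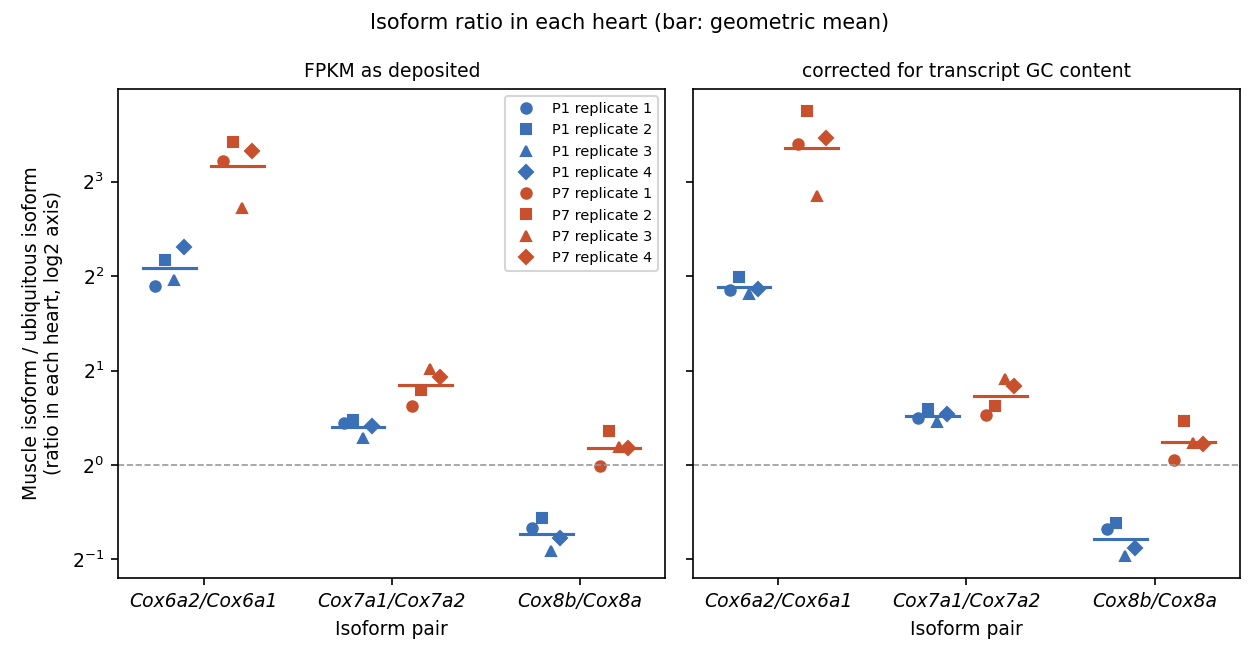
Ratio of the muscle to the ubiquitous isoform in each heart (log2 axis, bar for the geometric mean, dashed line at parity), from the deposited FPKM (left) and after correction for transcript GC content (right). The P7 hearts lie above the P1 hearts for all 3 pairs on the left, and for Cox6a2/Cox6a1 and Cox8b/Cox8a on the right, where Cox7a1/Cox7a2 overlaps.

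The 3 shifts were compared with each other inside the hearts. The shift of Cox8b/Cox8a exceeded that of Cox7a1/Cox7a2 by 0.47 on the log2 scale: the difference, Cox7a minus Cox8, was −0.47 ± 0.09 (SE, n = 4 per stage; exact permutation test, p = 0.0286). That difference was −0.82 with the GC correction, with the same p. The shift of Cox6a2/Cox6a1 differed from that of Cox7a1/Cox7a2 by 0.65 ± 0.23 (exact permutation test, p = 0.0857), and by 1.28 with the GC correction (p = 0.0286, exact permutation test). Between Cox6a2/Cox6a1 and Cox8b/Cox8a the difference was 0.18 ± 0.19 (p = 0.400, exact permutation test), and 0.45 with the GC correction (exact permutation p = 0.114). These p-values, like those of the 3 ratios, were not adjusted for the number of comparisons.

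The summed level of a pair changed less clearly than its composition. The sums were not computed with the GC correction. Cox6a2 plus Cox6a1 was 1109, 1112, 1240.3 and 762 FPKM at P1 and 1294, 1512, 1486 and 1578 FPKM at P7, with every P7 heart above every P1 heart. The log2 difference of 0.49 ± 0.17 (SE, n = 4 per stage; exact permutation test, p = 0.0286) was 0.22 under median-ratio scaling (exact permutation p = 0.60) and 0.34 relative to the single-isoform subunits of the same heart (exact permutation p = 0.200). That reference includes Cox7b, whose mean was lower at P7. Without P1 replicate 4 it was 0.35, and without each P7 heart in turn 0.46 to 0.55, with an exact permutation p of 0.0571 in all 5 cases. The stages stayed apart in these cases. Cox7a1 plus Cox7a2 ran from 669.9 to 932 FPKM at P1 and from 804 to 1487 FPKM at P7, a difference of 0.46 ± 0.22 (exact permutation p = 0.114). Relative to the single-isoform subunits it was 0.30 (exact permutation p = 0.0286), under median-ratio scaling 0.18 (exact permutation p = 0.543), and without P7 replicate 2 it was 0.61 (exact permutation p = 0.0286). Cox8b plus Cox8a ran from 1071 to 1914 FPKM at P1 and from 1443 to 2130.0 FPKM at P7, a difference of 0.24 ± 0.21 (exact permutation p = 0.343) that turned to −0.037 under median-ratio scaling.

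**Figure D3:**
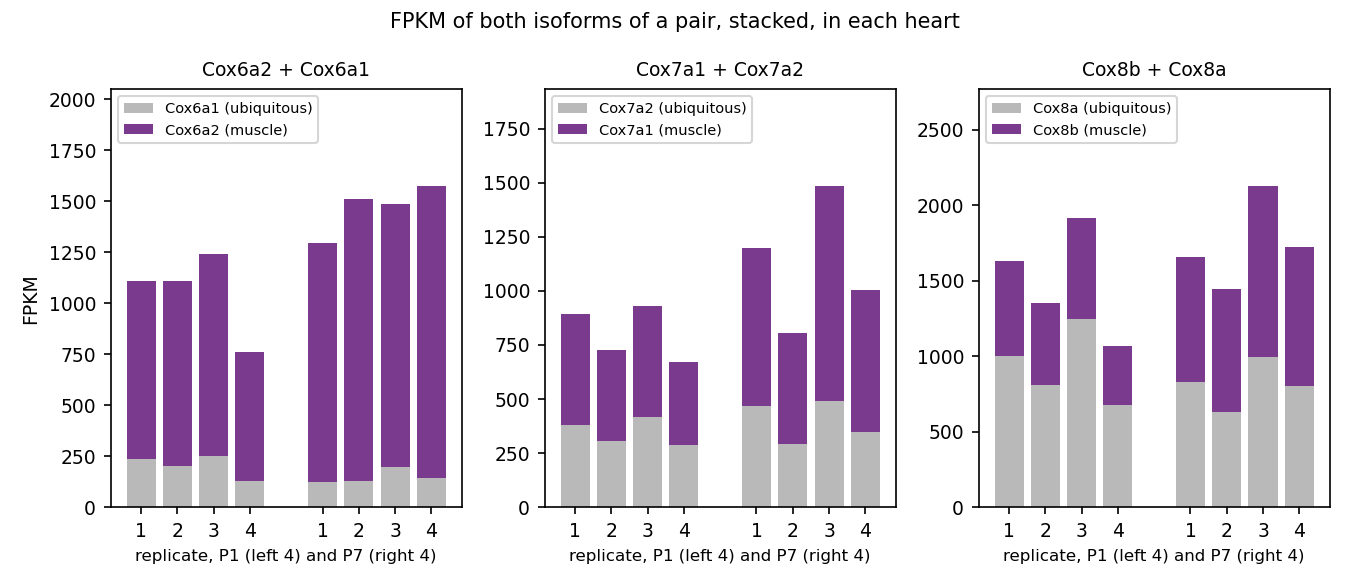
FPKM of the ubiquitous (grey) and muscle (purple) isoform of each pair stacked for every heart, P1 replicates 1 to 4 on the left and P7 replicates 1 to 4 on the right of each panel, with axes starting at 0. The purple share grows in all panels, from 80.9% to 89.9%, from 57.0% to 64.2% and from 37.7% to 53.1% on average, while the total height of the Cox7a and Cox8 bars overlaps between stages.

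Measured against the mean FPKM of 7 nuclear subunits that have a single main form, the isoforms also parted in the deposited FPKM. Cox7b had the highest mean of the 7 at P1, 5606 FPKM, and was at 2886 FPKM at P7 (log2 fold change −0.91). The others had log2 fold changes of 0.39 to 0.69. Levels relative to this reference thus also carry the change of Cox7b, and a reference without it was not computed. The log2 difference of that relative level was 0.49 ± 0.21 for Cox6a2, 0.47 ± 0.07 for Cox7a1 and 0.58 ± 0.13 for Cox8b, each with p = 0.0286 in the exact permutation test. The relative level of Cox8a fell by 0.33 ± 0.11 on the log2 scale (exact permutation p = 0.0286), and that of Cox6a1 gave −0.59 ± 0.17 (exact permutation p = 0.0571). For Cox7a2 it was 0.03 ± 0.09 (exact permutation p = 0.743). These relative levels were not computed with the GC correction. With it the log2 fold changes were 0.47 for Cox6a2, 0.28 for Cox7a1 and 0.35 for Cox8b. Those of the reference genes were then 0.71 for Cox5a, 0.75 for Cox5b, 0.36 for Cox6b1 and 0.66 for Cox6c. They were 0.75 for Cox7c, 0.90 for Ndufa4 and −0.60 for Cox7b.

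Cox7a2l was at 158, 131, 117 and 167 FPKM at P1 and at 176, 147, 246 and 184 FPKM at P7. The stages overlapped, with a log2 fold change of 0.38 ± 0.22 (SE, n = 4 per stage; limma, adjusted p = 0.358), and of 0.40 with the GC correction. Its ratio to Cox7a2 ran from 0.278 to 0.581 at P1 and from 0.375 to 0.533 at P7 and did not separate the stages (exact permutation p = 0.457).

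Cox4i2 rose. It was at 7.47, 8.29, 8.09 and 7.11 FPKM in the P1 hearts and at 17.3, 14.7, 24.5 and 18.6 FPKM in the P7 hearts, the lowest member at both ages. The P1 hearts were close together, and the lowest P7 heart was well above the highest of them. The mean rose from 7.74 ± 0.55 (SD, n = 4) to 18.8 ± 4.17, a ratio of 2.43. The log2 fold change was 1.16 ± 0.19 (SE; limma, adjusted p = 0.0109). With the correction for GC content it was 0.73 ± 0.20 and no longer passed (limma, adjusted p = 0.101).

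Cox4i2 is known for expression in pericytes, the mural cells of capillaries, so their markers were read beside it. Of 10 pericyte markers 6 were called higher at P7 in limma, against 7.74% of the loci with a symbol, 4 lay higher in every P7 heart, against 17.3%, and the median log2 fold change was 1.02. Among those called were the receptor Pdgfrb, the signalling receptor Notch3, the potassium channel subunit Kcnj8 and Vtn. The count varied with the hearts kept: it was 3, 1, 3 and 8 without P1 replicates 1 to 4 in turn, and 2, 5, 2 and 3 without P7 replicates 1 to 4. The share of all loci with a symbol called higher moved as well. It was 4.43%, 0.874%, 2.22% and 15.4% without P1 replicates 1 to 4, and 1.57%, 5.48%, 1.44% and 3.86% without P7 replicates 1 to 4. With the GC correction 0 markers were called by limma, against 2.15% of these loci called higher, with 7 markers at an unadjusted p under 0.05. The summed FPKM of the 10 markers ran from 111 to 230.3 at P1 and from 196 to 295 at P7, and the stages overlapped through P1 replicate 4. Cox4i2 relative to this sum was 0.0513, 0.0677, 0.0729 and 0.0309 at P1 and 0.0588, 0.0749, 0.0863 and 0.0803 at P7, which overlapped (log2 difference 0.49 ± 0.31, exact permutation p = 0.143). Among markers of other cell types, 5 of 7 fibroblast markers were called higher by limma (4 with the GC correction), with sums of 605 to 1223 FPKM at P1 and 1626 to 2001 FPKM at P7, and 2 of 6 endothelial markers (0 with the GC correction), with sums of 70.5 to 134.7 and 114.3 to 176 FPKM. Of 5 smooth muscle markers, Smtn was called higher and Cnn1 lower by limma, and 2 lay lower in every P7 heart, with a median log2 fold change of 0.0004. Limma called 0 of 4 tested leukocyte markers and 0 of 6 red-cell markers. The part of any of these cells in the rise of Cox4i2 was not tested.

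**Figure D4:**
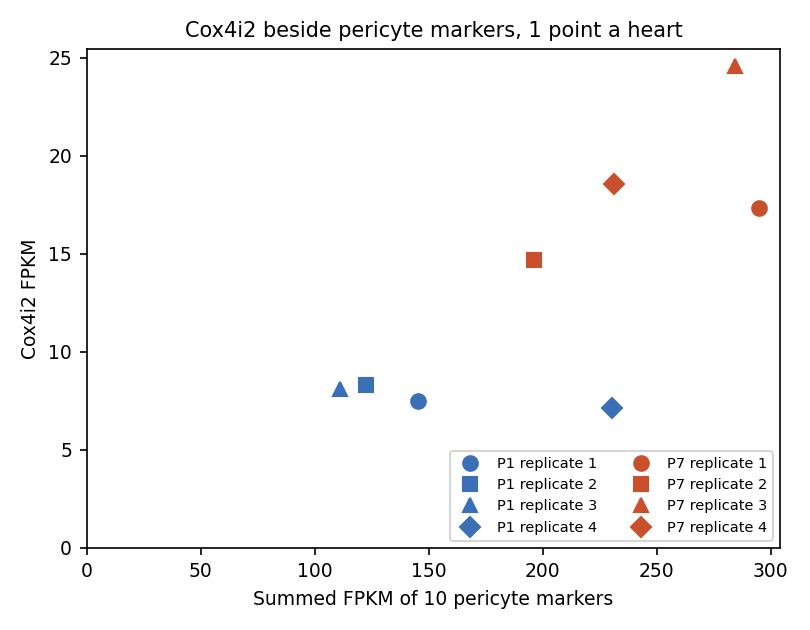
Cox4i2 FPKM against the summed FPKM of 10 pericyte markers, 1 point per heart, blue for P1 and orange for P7. P1 replicate 4 has a marker sum of 230.3, within the P7 range of 196 to 295, and a Cox4i2 level of 7.11 FPKM, within the P1 range.

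The other nuclear subunits gave the context of the complex. Of 11 genes 9 were tested, 1 was called higher by limma and 2 lay higher in every P7 heart, close to the 7.74% and 17.3% of all loci with a symbol, and the median log2 fold change was 0.50. The called gene was Ndufa4l2, the hypoxia-linked relative of the subunit gene Ndufa4, which also stands among the pericyte markers above. It was at 6.26, 5.62, 6.23 and 7.71 FPKM at P1 and at 17.7, 15.7, 15.5 and 17.1 FPKM at P7 (log2 fold change 1.24 ± 0.17; limma, adjusted p = 0.00593). With the GC correction its log2 fold change was 0.68 and its adjusted p in limma 0.0945. The ratio Ndufa4l2/Ndufa4 rose 1.75-fold (exact permutation p = 0.0286), with a log2 shift of 0.81 that turned to −0.21 with the correction.

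None of the single-form subunits passed the test. Log2 fold changes were 0.39 for Cox5a and 0.69 for Cox5b, which lie on the matrix side, 0.42 for Cox6b1, on the intermembrane side, 0.50 for Cox6c, 0.39 for Cox7c and 0.55 for Ndufa4, with limma adjusted p-values from 0.192 to 0.421. Cox7b, a subunit of the membrane arm, was at 5649.8, 6176, 7270.2 and 3328 FPKM at P1 and at 2531, 2584, 3488 and 2943 FPKM at P7. It was the subunit gene with the lowest log2 fold change, −0.91 ± 0.29 (SE, n = 4 per stage; limma, adjusted p = 0.108), and the stages overlapped through P1 replicate 4. Without that heart Cox7b was called, at −1.14 with an adjusted p of 0.0278 in limma. That fit called 3379 loci in all, against 1650 in the reported fit. Without any other single heart its log2 fold change was −1.01 to −0.77 and it was not called (limma, adjusted p = 0.124 to 0.276). With sample weights, which called 3697 loci, it was −0.996 (limma, adjusted p = 0.0255). The GC correction gave −0.598, and Cox7b was not called (limma, adjusted p = 0.309).

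Forms linked to the testis were low or not seen. Cox6b2 was at 3.9 to 9.58 FPKM at P1 and 10.9 to 15.2 FPKM at P7, apart between the stages but not called (log2 fold change 0.89 ± 0.28; limma, adjusted p = 0.103). Its ratio to Cox6b1 overlapped, with a log2 shift of 0.59 (exact permutation p = 0.257) and of 0.15 with the GC correction (exact permutation p = 0.686). Cox7b2 was below 1 FPKM in every heart and was not tested, and Cox8c was listed at 0 in all 8 hearts.

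**Figure D5:**
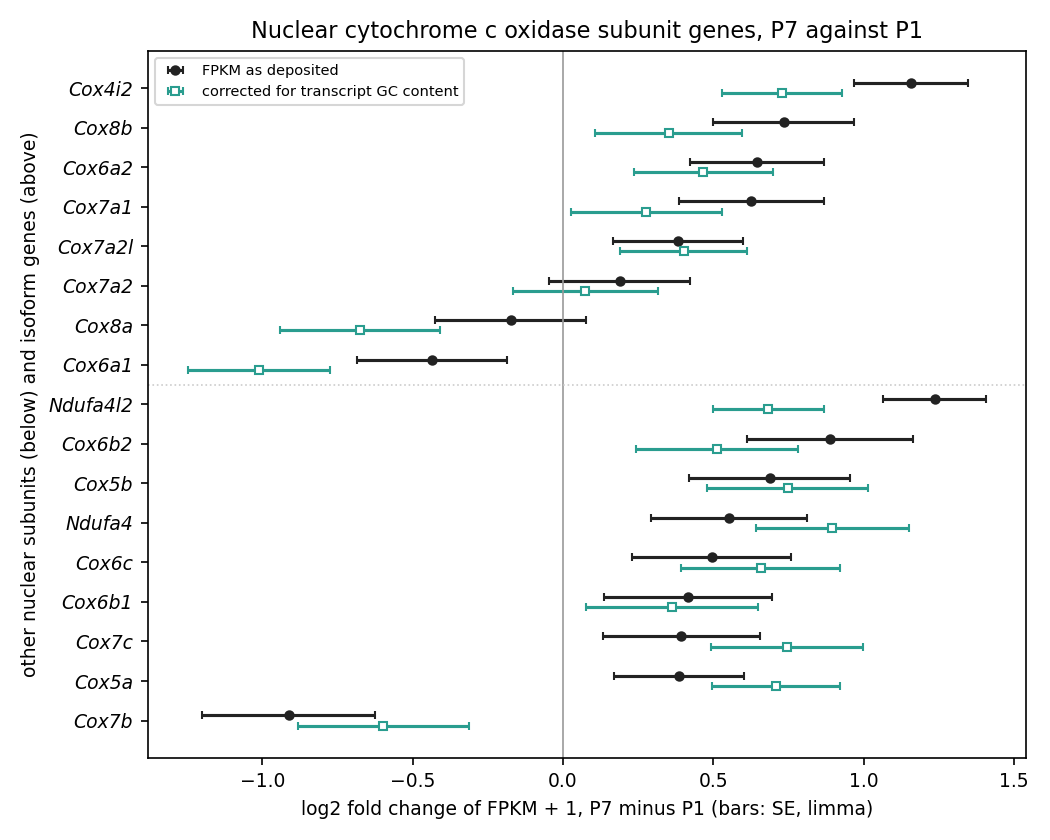
Log2 fold change of FPKM + 1 with its SE (limma, 4 hearts per stage, P7 minus P1) for the 8 isoform genes and 9 other nuclear subunit genes, from the deposited FPKM (black) and after correction for transcript GC content (open squares). Cox4i2 at 1.16 and Ndufa4l2 at 1.24 stand highest on the deposited scale, and Cox6a1 moves from −0.44 to −1.01 with the correction.

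The catalytic subunits mt-Co1, mt-Co2 and mt-Co3 shared 1 merged locus with 26 symbols and could not be separated. That locus was at 965, 932, 1217 and 432 FPKM at P1 and at 854, 1239, 1697 and 1009 FPKM at P7. The stages overlapped (log2 fold change 0.48 ± 0.33; limma, adjusted p = 0.428).

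Of 32 assembly factors of the complex 25 matched a locus and 2 were called higher by limma, close to the 7.74% of all loci with a symbol, and 0 lower (7 higher and 0 lower at an unadjusted p under 0.05), with a median log2 fold change of 0.30. Fdxr, the ferredoxin reductase that feeds electrons to heme A synthesis, had the largest value, from 2.10 ± 0.49 FPKM (SD, n = 4) to 5.0 ± 1.23 FPKM (log2 fold change 0.94 ± 0.21; limma, adjusted p = 0.0307). Higd1b, a HIG domain protein that is also among the pericyte markers, went from 3.18 ± 0.83 to 6.54 ± 1.29 FPKM (log2 fold change 0.86 ± 0.21; limma, adjusted p = 0.0411). Lrpprc, which stabilizes mitochondrial mRNAs, had the smallest value, −0.38 ± 0.26, with an adjusted p of 0.428 in limma.

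Among 17 transcription regulators linked to these genes 3 were called higher by limma, against 7.74% of all loci with a symbol, and 0 lower (4 and 0 at an unadjusted p under 0.05), with a median log2 fold change of 0.12. Cxxc5, a zinc finger protein known to act on the Cox4i2 promoter, had the largest value, from 13.5 ± 2.17 to 29.3 ± 3.88 FPKM (log2 fold change 1.07 ± 0.19; limma, adjusted p = 0.0142). Esrra, the nuclear receptor ERR alpha, went from 29.1 ± 4.23 to 50.6 ± 7.85 FPKM (log2 fold change 0.78 ± 0.19; limma, adjusted p = 0.0448). Mef2d, a muscle transcription factor, went from 24.3 ± 4.91 to 43.9 ± 7.61 FPKM (log2 fold change 0.83 ± 0.21; limma, adjusted p = 0.0451). Esrrg, a relative of Esrra, had the smallest value, −0.25 ± 0.19 (adjusted p = 0.454, limma). With the GC correction the log2 fold changes were 0.40 for Fdxr, 0.71 for Higd1b, 0.72 for Cxxc5, 0.77 for Esrra and 0.50 for Mef2d. None of the 6 calls in these lists and among the other subunits held with the GC correction. Under it limma called 0 of the 54 loci in all, against 2.35% of all loci with a symbol. Of the 54, 19 had an unadjusted p under 0.05, and the share of all tested loci at that threshold was not computed.

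The genes whose pattern over the 8 hearts was most like that of a member were sought among 8686 loci with a single symbol and a mean of at least 5 FPKM. For Cox6a2 they were Ptms, Epn1 and S100a16, with Pearson r of log2(FPKM + 1) of 0.97, 0.96 and 0.96. Cox7a1 was nearest to March5, Acyp2 and Pttg1 (r = 0.99, 0.99 and 0.98). For Cox8b the nearest were Rhoc, Hist1h3f and Med30 (r = 0.99, 0.98 and 0.98). Cox4i2 was nearest to Itpripl2, Pmp22 and 1110038F14Rik (r = 0.98 for each). The 4 sets did not share a gene. All hearts of a stage share their age and GC trend, so these coefficients only describe the 8 libraries.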

How the data were processed

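Total RNA of 8 whole hearts, 4 at P1 and 4 at P7, was sequenced in pairs of reads after ribodepletion (ScriptSeq v2 libraries). The authors deposited 1 table of FPKM per heart, made by a service provider on GRCm38 with an Ensembl annotation. The aligner is not given in the sources used here. FPKM carry no counts, so these files do not give the depth of a heart. The paper's supplement summarizes the mapping of each sample, which was not used in the tests here. Separate mice were the replicates.

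Loci that reached 1 FPKM in any heart were tested with limma 3.58.1 (R 4.3.3; lmFit, eBayes with trend) on log2(FPKM + 1), a scale that understates changes of low genes. Ratios and sums within a heart were compared by the exact two-sided permutation test over hearts. The GC correction subtracted a lowess trend (span 0.3) from each heart, with GC content from GENCODE transcripts. Promoters came from RefSeq (6 of 9 genes matched).

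The members, gene lists and marker lists were chosen with earlier results of these data known. Named genes were the members, all other subunits, assembly factors and regulators that were called or had the largest or smallest log2 fold change, and the 3 loci nearest to 4 of the members. Further alternatives were another pseudocount, other filters, median-ratio and quantile scaling, a replicate block, limma without trend, sample weights and each heart left out. Of the 32 assembly factors, 3 were matched under an older symbol.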

Additional observations from a re-analysis of the deposited data

Results flagged for a closer look

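The shift of Cox7a1/Cox7a2 between P1 and P7 was smaller than that of Cox8b/Cox8a, with a log2 difference of −0.47 ± 0.09 (SE, n = 4 per stage; exact permutation test, p = 0.0286, the smallest possible). The quotient of the 2 ratios was 2.16, 2.04, 2.30 and 2.28 in the P1 hearts and 1.56, 1.35, 1.77 and 1.68 in the P7 hearts, without overlap. Of 64 sets of 4 hearts examined for a heart standing apart, 1 held such a heart: Ndufa4 was at 681 FPKM in P1 replicate 2, against 899 to 927 FPKM in the other P1 hearts. Chance alone gives such a gap in about 1 of 20 sets.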

How the results depend on the processing

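The shifts of Cox6a2/Cox6a1 and Cox8b/Cox8a kept their direction, and their p of 0.0286 under a pseudocount, summed loci and both corrections. Cox7a1/Cox7a2 was at 0.20 with the GC correction and at 0.24 with GC and length, a correction added after seeing the data (exact permutation p = 0.0857 for both). With 1 heart left out the shifts were 1.00 to 1.23, 0.38 to 0.51 and 0.85 to 0.97 for Cox6a, Cox7a and Cox8, and the pair sums 0.35 to 0.58, 0.31 to 0.61 and 0.09 to 0.37. The exact permutation p was then 0.0286 for Cox8b/Cox8a in every case. It was 0.0571 for Cox6a2/Cox6a1 without P1 replicate 1 or 3, for Cox7a1/Cox7a2 without any P1 heart and for the Cox6a sum without P1 replicate 4 or any P7 heart, and 0.0286 for the Cox7a sum without P7 replicate 2. The stages stayed apart in all of these cases. As a replicate block, differences within a number, the shifts were 1.08, 0.44 and 0.91 and the sums 0.49, 0.46 and 0.24, positive in 4 of 4 pairs, with 0.125 the smallest p. The numbers do not pair the hearts: deviations of same-numbered hearts correlated at −0.10 to 0.12, and 2 of 8 hearts correlated best with their own number. Under median-ratio scaling the Cox6a, Cox7a and Cox8 sums were 0.22, 0.18 and −0.037 and Cox7a2 was −0.086. Relative to single-isoform subunits, Cox7b among them, the Cox6a sum was 0.34 and the Cox7a sum 0.30. Ndufa4l2/Ndufa4 was −0.21 with the GC correction.

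Called isoform genes numbered 1 in the reported fit and with any 1 heart left out. The number was 2 with at least 1 FPKM in every heart or with sample weights, where Cox8b joined (limma, adjusted p = 0.0496 and 0.0471), settings that called 20.2% and 16.4% of the loci with a symbol against 8.14%. It was 0 with the GC correction (2.35% called), alone, with a replicate block or with length, where the log2 fold change of Cox4i2 was 0.73 to 0.83 (limma, adjusted p = 0.0583 to 0.156). Of the 8 genes, 1 higher and 2 lower had an unadjusted p under 0.05 with the GC correction, alone or with the block. With GC and length these were 3 higher and 2 lower. Loci called numbered 1650 of all tested: 260.0 with no filter, 2711 with 1 FPKM in every heart, 1079 without trend, 3697 with weights, 506 with the GC correction, 565 with GC and the replicate block, 517 with GC and length, and 1283 with the replicate block alone. Left-out counts ran from 199 to 3379: 928, 199, 490.0 and 3379 without P1 replicates 1 to 4, and 346, 1146, 321 and 835 without P7 replicates 1 to 4. Of called loci 90.3% were higher at P7, but 56.7% with median-ratio and 66.5% with quantile scaling. The 6 other subunits, assembly factors and regulators called became 2 with no filter, 3 with the replicate block, 3 without trend, 9 with 1 FPKM in every heart, 9 with weights, 6 with the other pseudocount, 5 with median-ratio and 4 with quantile scaling, and 0 with each GC correction. They numbered 3, 1, 2 and 9 without P1 replicates 1 to 4, and 2, 4, 2 and 3 without P7 replicates 1 to 4. FPKM without counts give no interval for counting error.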

Other observations

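Cycs, the somatic cytochrome c that hands electrons to the enzyme, was at 932, 956, 1108 and 523 FPKM in the P1 hearts and at 618, 616, 1251 and 999 FPKM in the P7 hearts. The stages overlapped, with a log2 fold change of −0.03 ± 0.31 (SE, n = 4 per stage; limma, adjusted p = 0.960). Cyct, the testis form, stayed between 0.402 and 1.80 FPKM. Of the other factors reported to act on the Cox4i2 promoter, named here after their values were seen, Chchd2 had a log2 fold change of 0.42 ± 0.28 and Rbpj of −0.03 ± 0.19, and neither was called by limma (adjusted p = 0.415 and 0.925).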
